A study of Homo sapiens with 6 samples.

Results

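The genes described here are those whose symbol is GPR followed by a number, the numbered series of G protein-coupled receptors that were named from sequence before a ligand was known. The deposited table held 101 protein-coding rows of this form among 63677 gene rows, for 95 distinct symbols. The other 6 rows were second identifiers of GPR107, GPR162, GPR173, GPR179, GPR89A and GPR89B and had 0 counts in every library. The RNA came from human embryonic stem cells, of the line Royan H6 (RH6) or of Royan H5 (RH5). There were 4 naive libraries, 2 of each line, from cells induced with 2a2iL and then kept in 2iL medium, at passage 10 for RH6 and 17 for RH5. The 2 primed libraries, 1 of each line, came from cells in medium with bFGF, at passage 20 for RH6 and 16 for RH5. All cells grew on inactivated mouse embryonic fibroblasts, so state and medium changed together. The labels do not say that the duplicate naive libraries were separate cultures, so the p-values measure no more than the scatter of these libraries, some of which may be technical.

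G protein-coupled receptors cross the cell membrane in 7 helices and pass a signal to heterotrimeric G proteins, which raise or lower cyclic AMP or open other routes, until receptor kinases and arrestins switch the receptor off. Orphan receptors are those with no agreed ligand. Many of them act in the brain, in sensory cells or in blood cells, and some signal without any ligand. The name covers more than orphans. Among the 95 symbols are 18 adhesion receptors, which hold large extracellular domains that bind matrix or neighbouring cells. There are also 3 receptors of class C, 4 proton sensors and 18 class A receptors listed here as paired with a ligand. That list is not complete. Ligands have also been reported for GPR160 and GPR37, which are counted below among the other class A receptors. A further 12 symbols belong to proteins outside the main receptor families, such as the Golgi protein GPR107 and the lysosomal proteins GPR137B and GPR155. They are therefore called GPR genes below and not orphan receptors.

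Promoters from RefSeq (GRCh38.p14, from 250 bases before to 50 after the start) could be matched to 73 of the 101 rows. Those of 4 genes are shown, because GPR176 had the largest fall, GPR83 the largest rise and GPR50 the largest called difference between the lines, while GPR98 had the most counts. Capitals mark each CG dinucleotide, the site of DNA methylation in mammals.
GPR176: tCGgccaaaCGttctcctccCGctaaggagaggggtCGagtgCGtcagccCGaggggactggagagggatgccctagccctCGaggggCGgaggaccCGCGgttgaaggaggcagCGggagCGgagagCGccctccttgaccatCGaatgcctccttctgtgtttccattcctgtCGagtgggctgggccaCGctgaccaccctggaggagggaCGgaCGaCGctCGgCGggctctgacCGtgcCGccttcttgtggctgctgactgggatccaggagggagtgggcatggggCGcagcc
GPR83: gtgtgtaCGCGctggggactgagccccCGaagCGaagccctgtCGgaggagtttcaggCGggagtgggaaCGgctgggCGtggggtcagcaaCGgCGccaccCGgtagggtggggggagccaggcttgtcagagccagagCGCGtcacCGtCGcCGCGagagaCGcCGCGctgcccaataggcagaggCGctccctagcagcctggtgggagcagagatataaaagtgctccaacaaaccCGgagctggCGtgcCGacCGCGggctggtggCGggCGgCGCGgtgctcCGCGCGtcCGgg
GPR50: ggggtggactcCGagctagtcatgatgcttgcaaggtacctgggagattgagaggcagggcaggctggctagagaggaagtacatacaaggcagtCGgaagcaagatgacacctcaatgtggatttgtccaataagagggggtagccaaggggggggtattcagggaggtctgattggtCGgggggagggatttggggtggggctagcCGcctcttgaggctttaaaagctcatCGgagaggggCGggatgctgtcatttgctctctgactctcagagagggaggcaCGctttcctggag
GPR98: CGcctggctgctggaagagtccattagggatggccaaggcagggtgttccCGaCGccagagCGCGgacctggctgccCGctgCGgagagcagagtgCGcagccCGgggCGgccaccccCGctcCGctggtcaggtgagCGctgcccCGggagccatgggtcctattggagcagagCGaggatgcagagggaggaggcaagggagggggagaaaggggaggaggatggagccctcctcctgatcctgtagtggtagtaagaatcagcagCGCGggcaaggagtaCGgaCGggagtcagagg
The GPR176 promoter (chr15:39920217-39920516, minus strand) holds 24 CG dinucleotides and that of GPR83 (chr11:94401370-94401669, minus strand) holds 34. The GPR98 promoter (chr5:90558547-90558846, plus strand) holds 19 and the GPR50 promoter (chrX:151176334-151176633, plus strand) only 7. The median over all 27305 RefSeq promoters is 14. The TATA motif TATAAA, read on both strands, is in the GPR83 window and in 12% of all promoters. The GC box GGGCGG is in 44.6% of all promoters and in 7 of the 10 matched promoters of GPR genes that were lower in naive cells. It is also in 15 of the 28 matched promoters of tested GPR genes that were not called, and in the 1 matched promoter of those higher. Such matches describe the sequence and name no factor.

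The 6 libraries held 13457979 to 14663982 counts. The tests covered 19434 genes that passed a filter on low counts, and calls below are those with an adjusted p under 0.05 by edgeR's quasi-likelihood test. State markers moved with the labels, with 5 of 7 tested naive markers called higher and 6 of 6 primed markers called lower in naive cells. Of 5 markers shared by both states 2 were lower in naive cells and 0 higher. POU5F1, which was not called, stood at 343 to 505 CPM, the count scaled to library size, in naive and at 310 and 388 CPM in primed cells. Marker lists of other cells moved as well. Of 12 tested neural markers, 7 were lower and 0 higher in naive cells over both lines. Within each line the calls went both ways, with more lower than higher. The eye-field gene SIX3 stood at 0 to 0.561 CPM in naive cells. It was at 43.9 CPM in primed RH6 and at 12.53 CPM in primed RH5. The summed neural markers, most of them NES, were 717 to 1148 CPM in naive cells, 1319 CPM in primed RH6 and 810 CPM in primed RH5. Mesendoderm markers summed to 254 to 388 CPM in naive cells, against 19.4 CPM in primed RH6 and 102 CPM in primed RH5. Of 10 tested, 3 were higher and 1 lower over both lines. Within RH6 9 were higher and 1 lower, and within RH5 5 were higher and 4 lower. Fibroblast markers, of which 5 of 9 tested were higher and 1 lower, summed to 408 to 891 CPM in naive cells, against 291 and 286 CPM in primed cells. Trophectoderm markers, of which 4 of 7 tested were higher and 1 lower in naive cells, summed to 393 to 527 CPM in naive cells, against 138 CPM in primed RH6 and 186 CPM in primed RH5. Endothelial markers, with 2 of 4 higher and 1 lower, summed to 99.95 to 262.5 CPM in naive cells, against 89.0 CPM in primed RH6 and 240 CPM in primed RH5, and PECAM1 among them was at 0 throughout. Of 8 leukocyte markers 3 were tested, with 2 higher and 0 lower in naive cells. CD3E was at 0 throughout and PTPRC had 4 counts in all. The list summed to 10.97 to 44.59 CPM in naive and 6.84 and 8.91 CPM in primed cells. In bulk RNA, fewer cells of a type and less RNA per cell cannot be told apart, and the part of these other cells in the results below was not tested.

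Of the 101 rows, 53 passed the filter, 34 went untested with a total of 1 to 52 counts, and 14 had 0 counts. Between 40 and 43 GPR genes reached 1 CPM in a naive library, against 43 in primed RH6 and 45 in primed RH5. Their summed level was lower in naive cells, at 700 and 634 CPM in naive RH6 and 597 and 594 CPM in naive RH5, against 1171 CPM in primed RH6 and 1131 CPM in primed RH5. GPR176 made up 0.628% to 3.83% of that sum in naive libraries, 24.6% in primed RH6 and 29% in primed RH5. Without GPR176 the sums were 590 to 673 CPM in naive cells and 883 and 803 CPM in primed cells, so the groups still did not overlap. Much of the remaining gap was GPR98, at 103 to 159 CPM in naive cells, 366 CPM in primed RH6 and 264 CPM in primed RH5. The sums thus rest on a few genes and do not describe the GPR genes at large.

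Between naive and primed cells, 18 of the 53 GPR genes were called, 5 higher and 13 lower in naive cells. That is 34%, where 25.7% of all genes tested were called, 12.1% higher and 13.6% lower. At least 2-fold higher were 4 of them and at least 2-fold lower 10, against 6.49% and 8.95% of all genes. The median log2 fold change was -0.42 over the 53 genes and -0.0065 over all genes. In 10 GPR genes all 4 naive libraries lay above both primed libraries and in 20 they lay below, where 21.5% and 22.9% of all genes did so. The sign of the effect was the same in both lines for 39 of the 53, against 67.9% of all genes, and for all 18 that were called. The fit takes 1 effect over both lines, so called genes tend to share a sign and this is no separate support. The count of calls was 6 when the naive libraries of each line were summed to 1 library, with GPR83 higher and GPR176, GPR153, GPR160 and GPR98 lower among them.

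**Figure D1:**
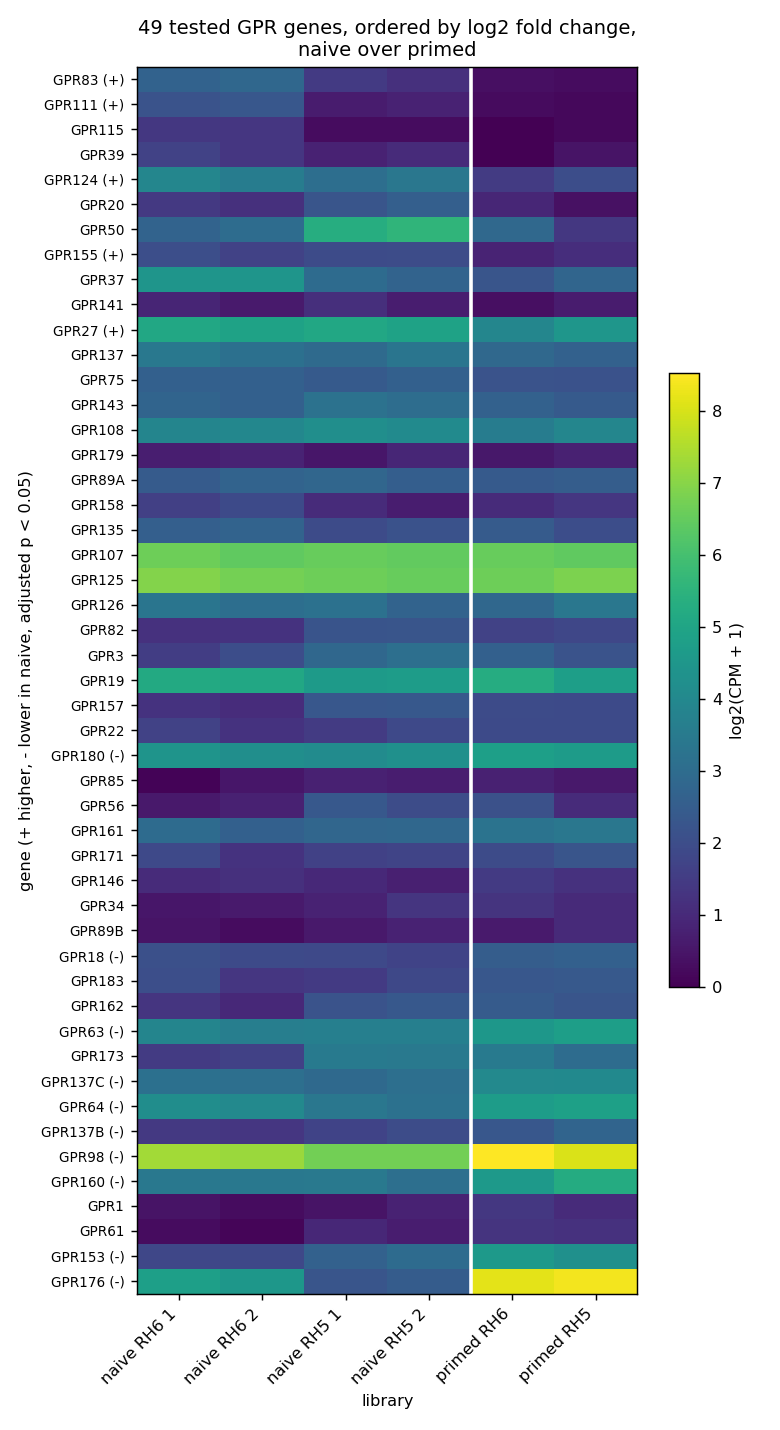
Level of 49 tested GPR genes in each library, as log2(CPM + 1), with the 4 naive libraries left of the 2 primed ones and genes ordered by their log2 fold change. The 5 genes marked + were higher and the 10 marked - lower in naive cells; GPR176 at the foot changes most, and GPR107 and GPR125 keep one shade across all libraries.

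GPR176 (ENSG00000166073) is a class A orphan that in mice signals through the inhibitory protein Gz and sets the pace of the circadian clock in the brain. It stood at 26.8 and 22.0 CPM in naive RH6 and at 3.75 and 4.56 CPM in naive RH5, against 288 CPM in primed RH6 and 327 CPM in primed RH5. Every naive library was far below both primed ones, and naive RH5 was below naive RH6. The log2 fold change was -4.99 ± 0.54 (SE, adjusted p = 0.0012). It was -3.56 ± 0.14 in RH6 and -6.30 ± 0.16 in RH5. The difference of 2.74 ± 0.22 between these effects was called (adjusted p = 5.49e-05). GNAZ, which encodes the alpha subunit of Gz, stood at 8.413 and 6.402 CPM in naive RH6 and 16.8 and 15.5 CPM in naive RH5, against 27.5 CPM in primed RH6 and 14.4 CPM in primed RH5, and was not called (log2 fold change -0.96 ± 0.42, adjusted p = 0.14).

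Scaled by exon length from GENCODE 29, GPR176 was the most abundant GPR gene in primed cells, at 56.2 CPM per kilobase in primed RH6 and 64.0 in primed RH5. In naive cells its level was 5.23 and 4.30 CPM per kilobase in RH6 and 0.732 and 0.890 in RH5. Behind it in primed cells came GPR19 at a mean of 12.2 and GPR125 at 11.4 CPM per kilobase. GPR19, a class A orphan, was not called, with a log2 fold change of -0.12 ± 0.11 between naive and primed cells (adjusted p = 0.49). The naive order differed between the lines. In naive RH6 GPR27 had 13.8 and 11.9, GPR19 13.4 and 12.6 and GPR125 13.3 and 11.4 CPM per kilobase, with overlapping values, and GPR107 followed at 10.7 and 9.28. In naive RH5 GPR50 came first at 19.7 and 23.7 CPM per kilobase, against 2.87 and 3.66 in naive RH6. Next in naive RH5 were GPR27 at 13.7 and 12, GPR125 at 10.6 and 9.92, GPR107 at 10.1 and 9.64 and GPR19 at 9.20 and 9.57 CPM per kilobase, where the values of GPR125 and GPR107 overlapped. GPR98 has the most counts of all GPR genes but the longest exons, 33822 bases. It stood at 4.71 and 4.40 CPM per kilobase in naive RH6 and 3.03 and 3.05 in naive RH5. In primed cells it stood at 10.8 in RH6 and 7.81 in RH5.

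Among the other class A receptors, 2 of 20 tested genes were higher and 4 lower, where 12.1% and 13.6% of all genes were. Their median log2 fold change was -0.29. GPR83, a receptor of brain and regulatory T cells in mice, stood at 5.47 and 6.11 CPM in naive RH6 and at 1.70 and 1.27 CPM in naive RH5, against 0.268 CPM in primed RH6 and 0.217 CPM in primed RH5. All naive libraries were higher, and naive RH6 the most, on few counts, 202 in naive and 7 in primed cells. The log2 fold change was 3.76 ± 0.48 (adjusted p = 0.0021). By summed counts the ratio was 21.5 in RH6, with a 95% counting interval of 8.25 to 80.0, and 6.85 in RH5, with an interval of 2.19 to 34.6. Such intervals cover counting error only.

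GPR27, one of a trio of closely conserved brain receptors with GPR85 and GPR173, stood at 33.7 and 29.1 CPM in naive RH6 and at 33.5 and 29.4 CPM in naive RH5, against 14.0 CPM in primed RH6 and 21.1 CPM in primed RH5. It was higher in each naive library, and its log2 fold change was 0.86 ± 0.18 (adjusted p = 0.014). The GPR27 call was lost when the naive duplicates of each line were summed. In GENCODE 29 up to 12.2% of its exon length overlaps a gene on the opposite strand, EIF4E3 among them. The strand setting of the counting is not given in the sources used here, so such reads cannot be told apart. GPR85 of the same trio had 1 to 11 counts a library and was not called (adjusted p = 0.61).

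GPR153, a brain orphan related to GPR162, stood at 2.52 and 2.58 CPM in naive RH6 and 5.23 and 6.95 CPM in naive RH5, against 22.9 CPM in primed RH6 and 18.5 CPM in primed RH5. The groups did not overlap and the log2 fold change was -2.41 ± 0.34 (adjusted p = 0.0031). GPR160, reported in rodents as a receptor for the CART peptide, stood at 9.54 and 9.71 CPM in naive RH6 and 9.97 and 7.69 CPM in naive RH5, against 23.2 and 36.7 CPM in primed RH6 and RH5. Its naive values were close together and all below the primed ones (log2 fold change -1.68 ± 0.21, adjusted p = 0.0019). A noncoding gene on the same strand overlaps 11.6% of its exon length. GPR63 was also lower, at -0.98 ± 0.16 (adjusted p = 0.0051), which is just short of a 2-fold change.

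The adhesion receptors went both ways, with 2 of 10 tested genes higher and 4 lower, where 12.1% and 13.6% of all genes were. Their median log2 fold change was -0.31. GPR98 (now ADGRV1), a very large receptor of hair cells and the retina whose loss causes Usher syndrome, stood at 159 and 149 CPM in naive RH6 and at 103 CPM in both naive RH5 libraries, against 366 CPM in primed RH6 and 264 CPM in primed RH5. It was lower in every naive library (log2 fold change -1.30 ± 0.09, adjusted p = 2.25e-04), and the effect was -1.25 in RH6 and -1.36 in RH5. GPR64 (now ADGRG2), which regulates fluid uptake in the epididymis, stood at 17.2 and 14.9 CPM in naive RH6 and 9.34 and 8.14 CPM in naive RH5, against 25.2 and 28.0 CPM in primed RH6 and RH5. Its log2 fold change was -1.18 ± 0.24 (adjusted p = 0.012), larger in RH5 at -1.68 than in RH6 at -0.65 (adjusted p = 0.021 for the difference).

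GPR124 (now ADGRA2), which in mice works with RECK to let brain vessels respond to WNT7 ligands, stood at 14.0 and 10.9 CPM in naive RH6 and 7.36 and 9.41 CPM in naive RH5, against 1.81 CPM in primed RH6 and 3.04 CPM in primed RH5. All naive libraries were higher (log2 fold change 2.07 ± 0.35, adjusted p = 0.0064). The GPR124 call was lost when the naive duplicates of each line were summed. Exons of BRF2 on the opposite strand overlap 23.1% of its exon length. The partners of this receptor did not rise with it: RECK fell to 7.71 to 10.6 CPM in naive cells, against 13.5 and 12.8 CPM in primed cells (log2 fold change -0.54 ± 0.16, adjusted p = 0.045). WNT7B had 0 to 0.283 CPM in naive cells, against 3.09 CPM in primed RH6 and 1.45 CPM in primed RH5 (log2 fold change -4.03 ± 0.70, adjusted p = 0.0072). WNT7A was at 0.374 CPM or less in every library and was not tested.

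GPR111 (now ADGRF2), which has no assigned ligand, stood at 3.51 and 3.97 CPM in naive RH6 and 0.566 and 0.747 CPM in naive RH5, against 0.201 CPM in primed RH6 and 0.145 CPM in primed RH5. Its naive level was high in RH6 and low in RH5, with 5 primed counts in all. The log2 fold change was 3.49 ± 0.56 (adjusted p = 0.0052). By counts the ratio was 18.6 in RH6 (95% counting interval 6.18 to 91.5) and 4.51 in RH5 (1.08 to 40.1). The call was lost without primed RH6 (adjusted p = 0.070), with no line term (0.063) and with the naive duplicates of each line summed (0.066). Its genomic neighbour GPR115 (now ADGRF4), whose exons overlap it in part, had 44 counts in naive RH6 and 0 in primed RH6, at least 7.85-fold higher against a floor of 3 counts over the group. In RH5 it had 6 counts in naive and 2 in primed cells, and over both lines it was not called (adjusted p = 0.066). GPR125 and GPR126, the other well-counted adhesion genes, were not called, at log2 fold changes of -0.02 ± 0.14 and -0.06 ± 0.27.

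Among the 7 tested class A receptors listed here as paired with a ligand, GPR18 was lower at -0.83 ± 0.23 (adjusted p = 0.039). The other 6 were not called. GPR160 and GPR37, for which ligands have also been reported, are not in that list. GPR39, a receptor that responds to zinc, was among those 6. It had 52 counts in naive RH6 and 0 in primed RH6, at least 9.28-fold higher. In RH5 the ratio was 2.51 with a counting interval of 0.943 to 8.39. Exons of LYPD1 on the opposite strand overlap 34.8% of the GPR39 exon length, and the strand setting of the counting is not given. Of the 2 tested receptors that raise cyclic AMP without a ligand, neither GPR3 nor GPR161, a ciliary brake on Hedgehog signalling, was called over both lines.

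Among the proteins outside the main families, 1 of 11 tested was higher and 3 were lower, where 12.1% and 13.6% of all genes were. GPR155, which senses cholesterol at the lysosome, stood at 3.16 and 2.21 CPM in naive RH6 and 2.83 and 2.99 CPM in naive RH5, against 0.805 CPM in primed RH6 and 1.16 CPM in primed RH5. It was higher in every naive library (log2 fold change 1.51 ± 0.32, adjusted p = 0.015). The GPR155 call was lost when the naive duplicates of each line were summed. GPR137B, also of the lysosome, was lower at -1.19 ± 0.24 (adjusted p = 0.013), a call lost without naive RH5 replicate 1 (0.051), with no line term (0.051) and with the naive duplicates of each line summed (0.14). GPR137C was lower at -1.05 ± 0.16 (adjusted p = 0.0039), with 6.51 to 7.78 CPM in naive cells and 15.1 and 15.4 CPM in primed cells. The GPR137C call was also lost with the naive duplicates summed. GPR180 was lower by less, at -0.52 ± 0.14 (adjusted p = 0.032). GPR107 stood at 84.9 to 97.9 CPM in naive and at 91.1 and 85.0 CPM in primed cells, with a log2 fold change of 0.05 ± 0.11, not called. GPR89A and GPR89B are near-identical copies that can share reads, so their split is uncertain, and neither was called.

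**Figure D2:**
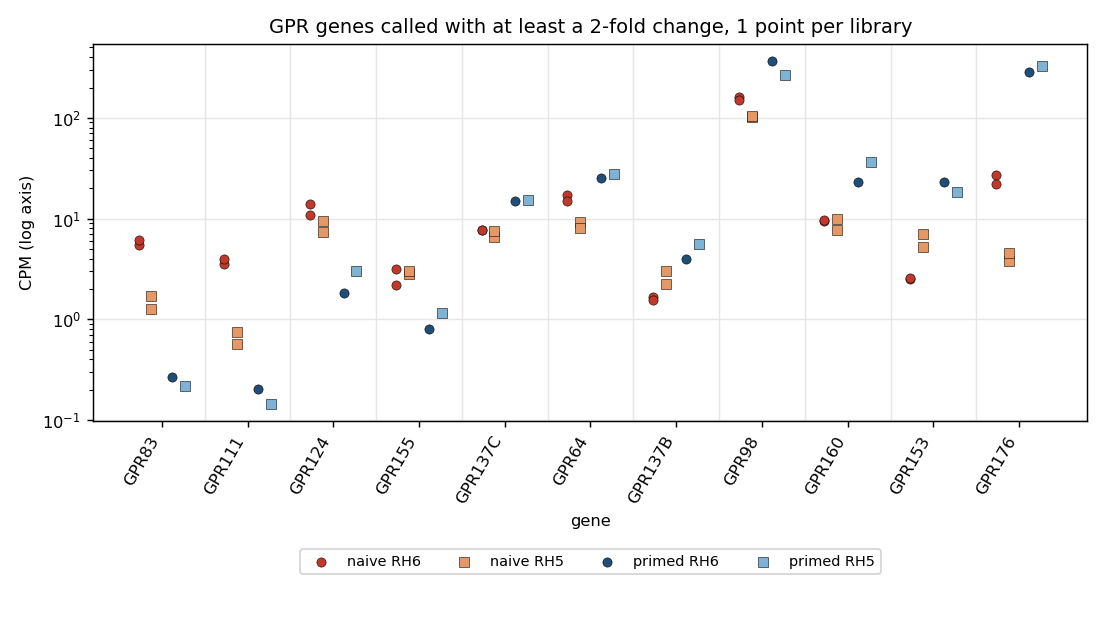
Level in CPM, on a log axis, of 11 GPR genes called with at least a 2-fold change, with 1 point per library and naive points left of primed ones. From GPR83 to GPR155 all naive points lie above the primed points, and from GPR137C to GPR176 all lie below.

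Within RH6 alone, 26 of the 53 GPR genes were called, 8 higher and 18 lower in naive cells, where 33.6% of all genes were called, 16.4% higher and 17.2% lower. In RH5 alone 23 were called, 9 higher and 14 lower, where 33.5% of all genes were, 16.5% higher and 17% lower. Each lone primed library was taken to vary like the naive duplicates. In both lines 4 genes were higher (GPR124, GPR155, GPR27 and GPR83) and 11 were lower, where 8.26% and 9.57% of all genes were. Lower in RH6 and higher in RH5 were 2 genes, GPR56 and GPR3, where 0.803% of all genes were, and 0 genes were the other way round, against 0.772%. With DESeq2 the counts were 17 in RH6 and 13 in RH5, out of 48 and 47 GPR genes that it gave an adjusted p.

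The effect of the state differed between the lines for 12 of the 53 genes, where 12% of all genes did so. It was more positive in RH6 for 4 and less positive for 8, against 5.86% and 6.16% of all genes. DESeq2 called fewer of these 12 genes, so the calls depend in part on the test. GPR50, an X-linked relative of the melatonin receptors that binds no melatonin, differed most. It stood at 5.61 and 7.14 CPM in naive RH6 and at 38.3 and 46.2 CPM in naive RH5, against 6.37 CPM in primed RH6 and 1.59 CPM in primed RH5. Only naive RH5 was high. The log2 fold change was -0.0022 ± 0.23 in RH6 and 4.72 ± 0.28 in RH5, a difference of -4.72 ± 0.37 (adjusted p = 4.72e-05). The melatonin receptor gene MTNR1A, its partner, was at 0.537 CPM or less in every library and was not tested.

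GPR56 (now ADGRG1), which binds collagen III in the developing cortex, stood at 0.491 and 0.736 CPM in naive RH6 and 4.10 and 2.91 CPM in naive RH5, against 3.29 CPM in primed RH6 and 1.09 CPM in primed RH5. Naive RH6 was below its primed library and naive RH5 above its own. In RH6 the log2 fold change was -2.41 ± 0.44, with an adjusted p of 0.0021. In RH5 it was 1.69 ± 0.45, with an adjusted p of 0.015. The difference of -4.10 ± 0.63 was called (adjusted p = 0.0024). Of 12 tested genes for reported ligands and partners of GPR proteins, 5 were higher and 3 lower over both lines, where 12.1% and 13.6% of all genes were. Among those that rose in each line were the genes of ligands of GPR56. COL3A1 had effects of 4.62 in RH6 and 4.04 in RH5, and TGM2 of 2.74 and 2.44. COL3A1 is also one of the fibroblast markers summed above.

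GPR3, which keeps mouse oocytes in meiotic arrest, stood at 1.89 and 3.02 CPM in naive RH6 and 6.22 and 7.69 CPM in naive RH5, against 5.10 CPM in primed RH6 and 3.55 CPM in primed RH5. As for GPR56, naive RH6 was below its primed library and naive RH5 above its own. Its log2 fold change was -1.06 ± 0.33 in RH6, with an adjusted p of 0.032, and 0.97 ± 0.33 in RH5, with an adjusted p of 0.043. GPR173 stood at 1.82 and 2.13 CPM in naive RH6 and 10.3 and 9.86 CPM in naive RH5, against 10.2 CPM in primed RH6 and 7.10 CPM in primed RH5. Naive RH6 was the low group, with -2.36 ± 0.24 in RH6 (adjusted p = 4.15e-05) and 0.50 ± 0.22 in RH5, which was not called. GPR162 was likewise low in naive RH6 alone, at 1.47 and 0.957 CPM, with 3.54 and 4.11 CPM in naive RH5, 4.50 CPM in primed RH6 and 3.69 CPM in primed RH5. For GPR3 and GPR162 the difference between lines was not called with DESeq2 (adjusted p = 0.090 and 0.23).

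GPR37, a brain receptor for which prosaposin has been reported as a ligand, was high in naive RH6 alone. It stood at 20.6 and 20.8 CPM there and at 6.93 and 5.60 CPM in naive RH5, against 3.76 CPM in primed RH6 and 5.87 CPM in primed RH5. Its effect in RH6 was a log2 fold change of 2.46 ± 0.23 (adjusted p = 2.18e-05), that in RH5 was 0.10 ± 0.23, and the difference was 2.36 ± 0.32 (adjusted p = 0.0013). PSAP, the prosaposin gene, stood at 210 to 240 CPM in naive and at 236 and 213 CPM in primed cells and was not called. GPR20 was higher in naive RH5, at 3.749 and 5.004 CPM, with 1.68 and 1.25 CPM in naive RH6, 0.872 CPM in primed RH6 and 0.290 CPM in primed RH5. Its ratio by counts was 15 in RH5 (95% counting interval 5.73 to 56.1) and 1.69 in RH6 (0.887 to 3.43). The difference of the GPR20 effects between the lines was -3.13 ± 0.82 on the log2 scale (adjusted p = 0.035), but it was called neither with DESeq2 (adjusted p = 0.13) nor with limma-voom (0.068).

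**Figure D3:**
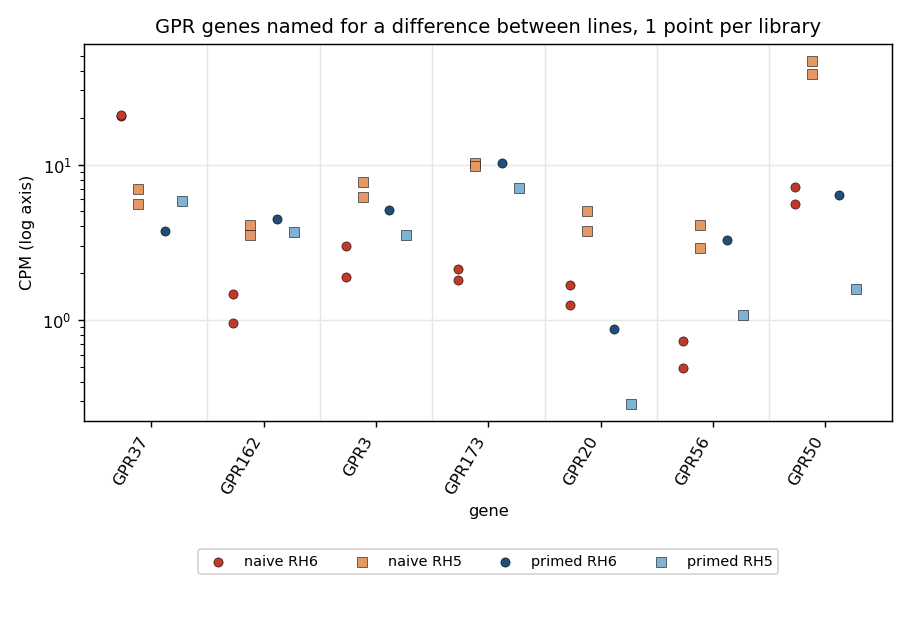
Level in CPM, on a log axis, of 7 GPR genes named for a difference between the lines, with 1 point per library and naive points left of primed ones. GPR37 is high in naive RH6 alone, GPR50 in naive RH5 alone, and GPR56 and GPR3 cross, with naive RH6 below and naive RH5 above its own primed library.

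**Figure D4:**
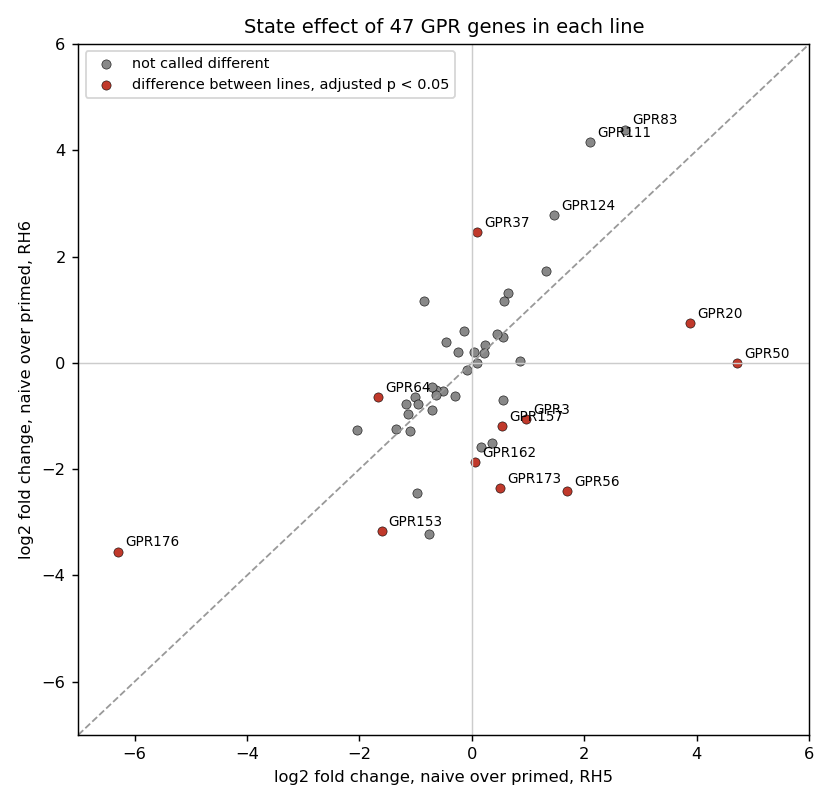
Log2 fold change of 47 tested GPR genes, naive over primed, in RH6 on the vertical and RH5 on the horizontal axis, with equal effects on the dashed line. GPR39 and GPR115 are left out since primed RH6 had 0 counts of them, and GPR83 and GPR111 rest on 2 to 4 primed counts a line; red points mark 11 genes whose effect differed, among them GPR50 far to the right and GPR176 at the lower left.

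Naive RH6 and naive RH5 were also set against each other, 2 libraries each. Of the 53 GPR genes 21 were called, 11 higher and 10 lower in RH6, where 25.5% of all genes were called, 12% higher and 13.5% lower. GPR115 had the largest positive log2 fold change at 2.81 and GPR176 the next at 2.56 ± 0.16 (adjusted p = 3.18e-06), while GPR50 had the largest negative one at -2.73 ± 0.17 (adjusted p = 3.12e-06), with the values given above. GPR107 was at 0.02 and GPR155 at -0.11 on the log2 scale, neither of them called. DESeq2 called 13.

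The genes that carry the signal of these receptors were followed by a list of 72 G protein subunits, adenylyl cyclases, receptor kinases, arrestins and RGS proteins, which speed the switching off of G proteins. Of these 57 were tested, 10 were higher, 14 lower and 33 not called in naive cells, with a median log2 fold change of -0.10. Over all genes tested 12.1% were higher and 13.6% lower. Of 13 alpha subunits 1 was higher and 1 lower. GNAO1, an inhibitory subunit abundant in neurons, fell to 3.44 and 4.20 CPM in naive RH6 and 9.69 and 10.9 CPM in naive RH5, against 23.8 and 29.3 CPM in primed RH6 and RH5 (log2 fold change -2.08 ± 0.26, adjusted p = 0.0019). GNAT2, the cone transducin, had 1.28 ± 0.26. Of 13 beta and gamma subunits 4 were higher and 3 lower, with GNGT1 at 1.68 ± 0.45 and GNG4 at -3.97 ± 0.47.

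Of 9 adenylyl cyclases, which make cyclic AMP, 5 were lower, where 13.6% of all genes were, with ADCY3 at -1.46 ± 0.22. ADCY10, the soluble cyclase that responds to bicarbonate and not to G proteins, was the 1 that was higher, at 2.44 ± 0.44. Both beta-arrestins were called, in opposite directions. ARRB1 rose to 128 and 123 CPM in naive RH6 and 135 and 105 CPM in naive RH5, against 10.5 CPM in primed RH6 and 23.0 CPM in primed RH5 (log2 fold change 2.92 ± 0.29, adjusted p = 8.86e-04). ARRB2 fell to 9.86 to 14.9 CPM in naive cells, against 42.1 CPM in primed RH6 and 28.7 CPM in primed RH5 (log2 fold change -1.43 ± 0.22, adjusted p = 0.0048). Of 15 RGS genes 3 were higher and 3 lower, where 12.1% and 13.6% of all genes were. RGS1 had 162 counts in naive and 1 in primed cells, a ratio of 84.0 with a counting interval of 14.9 to 3340, and RGS11 had -3.40 ± 0.69.

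**Figure D5:**
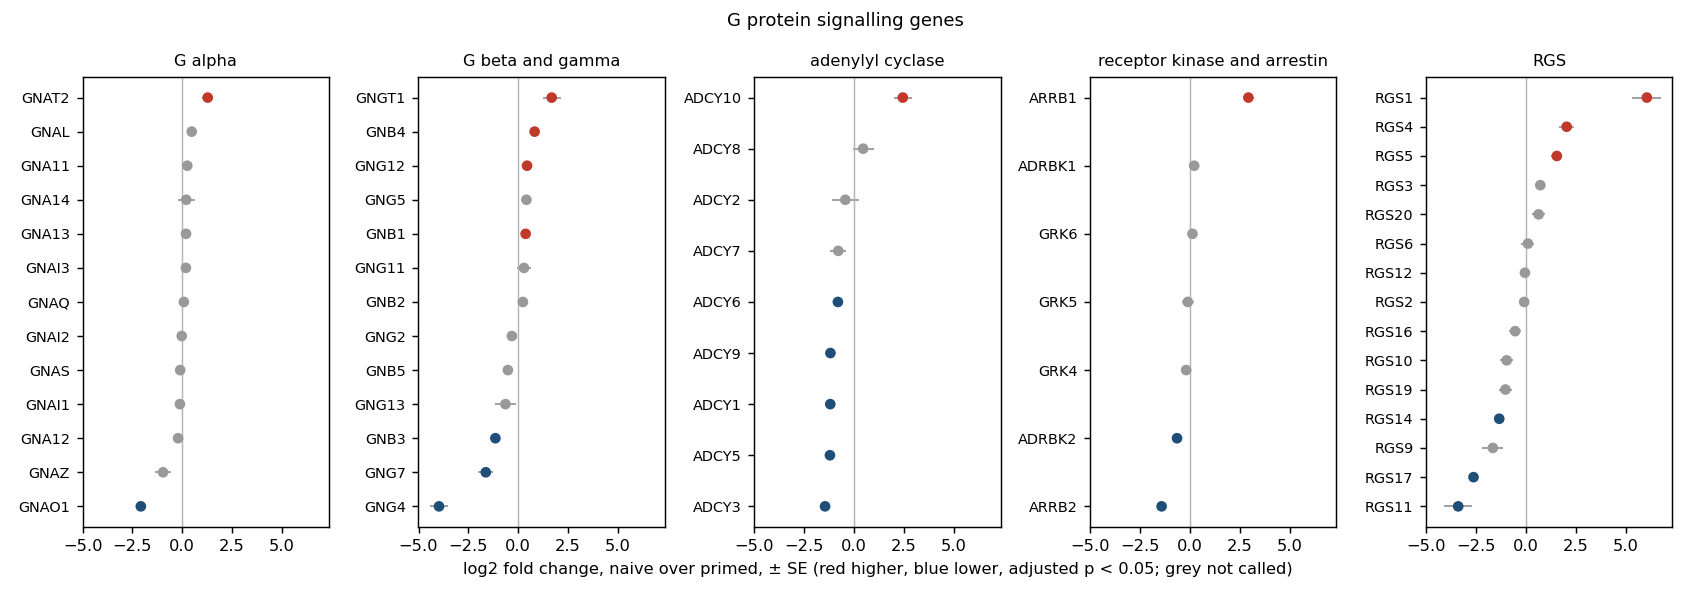
Log2 fold change, naive over primed, with its SE for the 57 tested G protein signalling genes in 5 groups; red points were called higher and blue ones lower in naive cells. ARRB1 and ARRB2 stand at opposite ends of their panel, most alpha subunits are near 0, and the RGS1 value rests on 1 primed count.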

How the data were processed

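For each of 6 libraries the authors deposited raw counts of reads per gene, as whole numbers. Per the labels' protocols, libraries were made from total RNA with a stranded kit. Per the submitters' processing notes, STAR 2.4.0a, featureCounts 1.4.5-p1 and DESeq2 were used, with builds hg19 and GRCh37.p5; no annotation or strand setting is given in these sources. Counts were tested with edgeR 4.0.16 (R 4.3.3), by the quasi-likelihood test with TMM factors (0.964 to 1.029), on 19434 genes kept by filterByExpr (minimum count 10, minimum total 15, state as group). Naive against primed had the line as covariate (3 residual degrees of freedom, biological coefficient of variation 0.189). Effects within lines, their difference and naive RH6 against naive RH5 came from 1 mean per group (2 degrees of freedom, 0.0964), with the spread from the naive duplicates alone. P-values are two-sided and adjusted by Benjamini-Hochberg over all genes tested. The standard error is the log2 fold change over the square root of F. CPM values use TMM-scaled sizes. The chi-square per gene of naive duplicates was 9.22 in RH6 and 5.76 in RH5, above the value near 1 of counting noise, so both were kept. Exon lengths and overlaps came from GENCODE 29, matched by identifier for 93 of 101 rows. Alternatives were RLE and upper-quartile factors, other filters, DESeq2 1.42.0, limma-voom (limma 3.58.1), other covariates and libraries left out or summed. Genes given in full were those called with at least a 2-fold change, up to 8 more with the smallest adjusted p for a difference between lines, and the 6 with the highest CPM. Of the signalling lists, the largest called rise and fall of each list and the ligands and partners of those genes were named. GPR63, GPR18, GPR180, GPR39, GPR115, GPR85, GPR126, GPR161, GPR89A, GPR89B and GNAZ were added after their values were seen. Some genes that enter the counts are not reported here by name. The genes and lists were chosen with earlier results of these data known.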

Additional observations from a re-analysis of the deposited data

Results flagged for a closer look

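The state effect, naive over primed, differed between the lines by an edgeR contrast for 10 of the GPR genes given in full. DESeq2 called fewer than 10 GPR genes for this difference, so not all of these calls held with both tests. In log2 units, RH6 minus RH5, the difference was 2.74 for GPR176, 2.36 for GPR37 and 1.03 for GPR64, so these effects were more positive in RH6. It was -4.72 for GPR50, -4.10 for GPR56, -3.13 for GPR20, -2.87 for GPR173, -2.03 for GPR3, -1.92 for GPR162 and -1.56 for GPR153, so these were more positive in RH5. Each rests on 1 primed library a line, and passage number differed with line and state (naive RH6 at 10 and naive RH5 at 17, against 20 in primed RH6 and 16 in primed RH5), so line, passage and culture cannot be told apart.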

How the results depend on the processing

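For naive against primed, 30 GPR genes were called with 1 mean per line and state averaged over the lines and 6 after summing the naive duplicates, against 18 as reported, and the summed fit leaves 1 residual degree of freedom. Leaving out 1 library gave 14 to 26 calls there, 25 to 27 in RH6, 19 to 25 in RH5, 12 to 17 for the difference between lines and 19 or 20 for naive RH6 against naive RH5. DESeq2 called 17 of 48 in RH6, 13 of 47 in RH5 and 5 of 44 for the difference (12 of 53 as reported). It gave the other tested GPR genes no adjusted p there. For naive RH6 against naive RH5 it called 13 of 53 (21 as reported). The cause of these lower counts was not tested. The naive replicate numbers do not mark a shared batch in the labels, and the replicate 1 minus 2 differences of the lines correlated at 0.242 over genes. With the replicate block 25 genes were called for naive RH6 against naive RH5, and 22 in the same libraries without it. The sign of the log2 fold change, naive over primed, turned only for genes not called over both lines. It was -0.037 for GPR107 with upper-quartile factors. Leaving out 1 library moved GPR125 between -0.24 and 0.21 (0.054 without naive RH5 replicate 2), GPR162 between -1.88 and 0.048, GPR173 between -2.36 and 0.50, GPR3 between -1.06 and 0.97, GPR50 between -0.0023 and 4.72 and GPR56 between -2.41 and 1.69. Both ends are those without a primed library, which leave the effect of 1 line. For GPR3 it was 0.12 with limma-voom, 0.12 with no line term and 0.22 without naive RH6 replicate 1, and for GPR56 0.19 with limma-voom and 0.021 without naive RH6 replicate 1. Over all values of the genes given in full under the alternatives, 353 kept direction and call, 15 lost and 19 gained a call, and 13 turned. The filter left 34 GPR genes with counts untested.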

Other observations

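Some GPR genes with too few counts to be tested had counts in 1 state alone. GPR144, an adhesion receptor, had 0 counts in all 4 naive libraries, against 12 in primed RH6 and 3 in primed RH5, at least 9.64-fold lower in naive cells against a floor of 3 counts over the group. GPR45, a class A orphan, had 7 counts in naive RH5, 0 in naive RH6 and 0 in primed cells, too few to show a difference between the states. These genes were chosen after their values were seen.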
